A study of Mus musculus with 4 samples.

Results

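The Bcl2 family in mouse intestinal organoids was read on 4 expression arrays, 1 for each group, as 10 genes: Bcl2l15, Bcl2, Bcl2l1, Mcl1, Bcl2l11, Bik, Bmf, Bid, Bax and Bak1. Every probe set naming exactly 1 of these symbols in the platform's annotation was taken. This gave 32 of the 45101 probe sets, for 9 of the 10 genes. Bax is not analysed here. Of the 32 probe sets, 26 had an intensity of at least 20.9, the median of all values, on 1 or more arrays. These 26 cover all 9 genes, and 16 of them were past that level on all 4 arrays. The members were chosen by function with the 4OHT differences of these same arrays known, and Bcl2l15 was selected on its low level after 4OHT. All values below are therefore a description, and no test was run on them.

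All 4 groups were organoids, epithelial cultures grown from gut tissue as small spheres with buds, of the genotype Apc fl/fl. Apc holds back Wnt signalling by helping to destroy beta-catenin. In such designs 4-hydroxytamoxifen (4OHT), here given for 24 h, switches on a Cre recombinase that cuts the floxed alleles. The groups were untreated and 4OHT-treated organoids at day 4, and untreated and 4OHT-treated organoids at day 6. The labels call the untreated organoids normal and the treated ones Apc-deficient. The Cre driver, the number of animals and any 4OHT-treated organoids without the floxed alleles are not given in the sources used here. The effects of the drug itself and of recombination cannot be told apart.

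Proteins of the Bcl2 family decide whether the outer mitochondrial membrane is opened, which releases cytochrome c and starts the caspase cascade. Bcl2, Bcl2l1 (Bcl-xL) and Mcl1 are guardians that hold the membrane shut. Bax and Bak1 form the pores, and the BH3-only proteins Bcl2l11 (Bim), Bid, Bik and Bmf free or activate them. Bcl2l15, also called Bfk, is a less studied member with a BH3 region that is known from the gastrointestinal tract. In the gut, Mcl1 is known to be needed for survival of the epithelium.

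Differences are given as log2(intensity + 16), where the added 16 shrinks the change of dim probe sets, and folds are computed on that scale. Each comparison set 1 array against 1, so it has no replicate check. "At least 2-fold" is a size, not a test. The 4OHT comparisons of the different days share no array, so the gap between them gives a rough scale of error that also holds any true difference between the days. Over the 23044 probe sets that named 1 gene and passed the level, this gap had a median size of 0.30 and a 95th percentile of 0.93. The 4 probe sets of Apc differed with 4OHT by -0.40 to 0.77, and they do not check the labels, since where they lie relative to the floxed exons is unknown here. Axin2, a direct target of Wnt signalling, had 4OHT differences of 0.76 on day 4 and 0.89 on day 6. The epithelial gene Vil1 read 721 to 1865 on the 4 arrays. Of 8 immune cell markers measured, 6 passed the level, and of 8 fibroblast and muscle markers 5 did. Their summed intensities were 648 to 2298 and 124 to 216. Among them the leukocyte gene Ptprc (6.23 to 10.9) and the fibroblast gene Col3a1 (5.91 to 9.49) stayed under the level on all 4 arrays. The immune marker Cd4 (48.4 to 99.0) and the fibroblast and muscle marker Acta2 (34.2 to 59.4) were past it on all 4. The lysozyme gene Lyz2, found in macrophages and also in gut epithelium, read 497 to 2046 and was higher with 4OHT by 0.78 and 1.84.

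Bcl2l15 was the one member with a large difference, lower with 4OHT on both days. At day 4 untreated organoids read 335 and 4OHT-treated ones 61.3 in intensity. At day 6 it was 1044 in the untreated and 129 in the treated ones. Both 4OHT arrays thus lay below both untreated arrays, even across the days. The difference was -2.18 at day 4, or 4.54-fold, and -2.87 at day 6, or 7.29-fold. At day 4 only 2 of the 23044 probe sets had a lower value than Bcl2l15, and at day 6 only 6 did. The gap between the days (-0.68) was larger than the median gap over all probe sets and smaller than their 95th percentile.

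Over time Bcl2l15 was higher at day 6 than at day 4 in both arms. The difference was 1.59 without 4OHT and 0.91 with it. The median over all probe sets was 0.21 without 4OHT and 0.07 with it. Among the same probe sets, 23.7% were at least 2-fold higher at day 6 in the untreated and 16.2% in the 4OHT-treated organoids. Bcl2l15 passed that size only without 4OHT, and it did not pass there after quantile normalization (0.93). With median centring (1.01) or a pseudocount of 1 (1.07) it passed with 4OHT too. Whether the authors put the day 4 and day 6 arrays on a common scale is unknown, so day differences are less certain than 4OHT differences.

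Bcl2l15 (chr3:103831036-103854618, GRCm38) was read by a single probe set, 1452614_at, so no second probe set of the gene checks these values. The 250 bases before its start in RefSeq's promoter table (GRCm38.p6) are shown because this gene moved apart from its relatives. Those of Bcl2, the founding member, are shown beside them. The window of Bcl2l15 is chr3:103832446-103832695 on the plus strand and that of Bcl2 is chr1:106714291-106714540 on the minus strand. Capitals mark the letters AGATAA or their reverse complement TTATCT, the core bound by GATA factors.
Bcl2l15: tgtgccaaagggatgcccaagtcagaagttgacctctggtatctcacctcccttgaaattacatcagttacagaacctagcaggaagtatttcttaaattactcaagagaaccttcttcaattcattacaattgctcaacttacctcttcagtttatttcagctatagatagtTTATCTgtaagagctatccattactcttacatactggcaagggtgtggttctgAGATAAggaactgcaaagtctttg
Bcl2: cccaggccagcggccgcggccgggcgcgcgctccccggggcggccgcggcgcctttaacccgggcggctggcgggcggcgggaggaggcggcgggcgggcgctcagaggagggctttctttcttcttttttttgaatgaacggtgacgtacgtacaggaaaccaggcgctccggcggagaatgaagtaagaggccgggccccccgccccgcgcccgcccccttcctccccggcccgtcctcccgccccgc
The Bcl2l15 window was 38.8% G and C and held 0 CG dinucleotides. That of Bcl2 was 74.8% G and C and held 36. Over 32851 RefSeq starts the median was 52.4%, with 6 CG dinucleotides. The other member windows, 12 of them for 7 genes, ran from 47.6% to 73.2%. Bcl2l15 held 2 GATA matches, at bases -77 to -72 and -24 to -19 counted from the start, and 9.99% of all windows held at least 1. Its window held no match on either strand to the TCF/LEF core CTTTGA, the CDX motif TTTATNG, the E-box CACGTG or the TATA box TATAAA. At least 1 match is found in 13.8%, 9.81%, 6.02% and 12.4% of all windows, in that order. Bcl2 held none of the 5 motifs. Among the other member windows, 1 of Bcl2l1 also held a GATA match, at bases -41 to -36. These are matches of letters and do not show binding. RefSeq's gene record for Bcl2l15 begins upstream of this window.

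**Figure D1:**
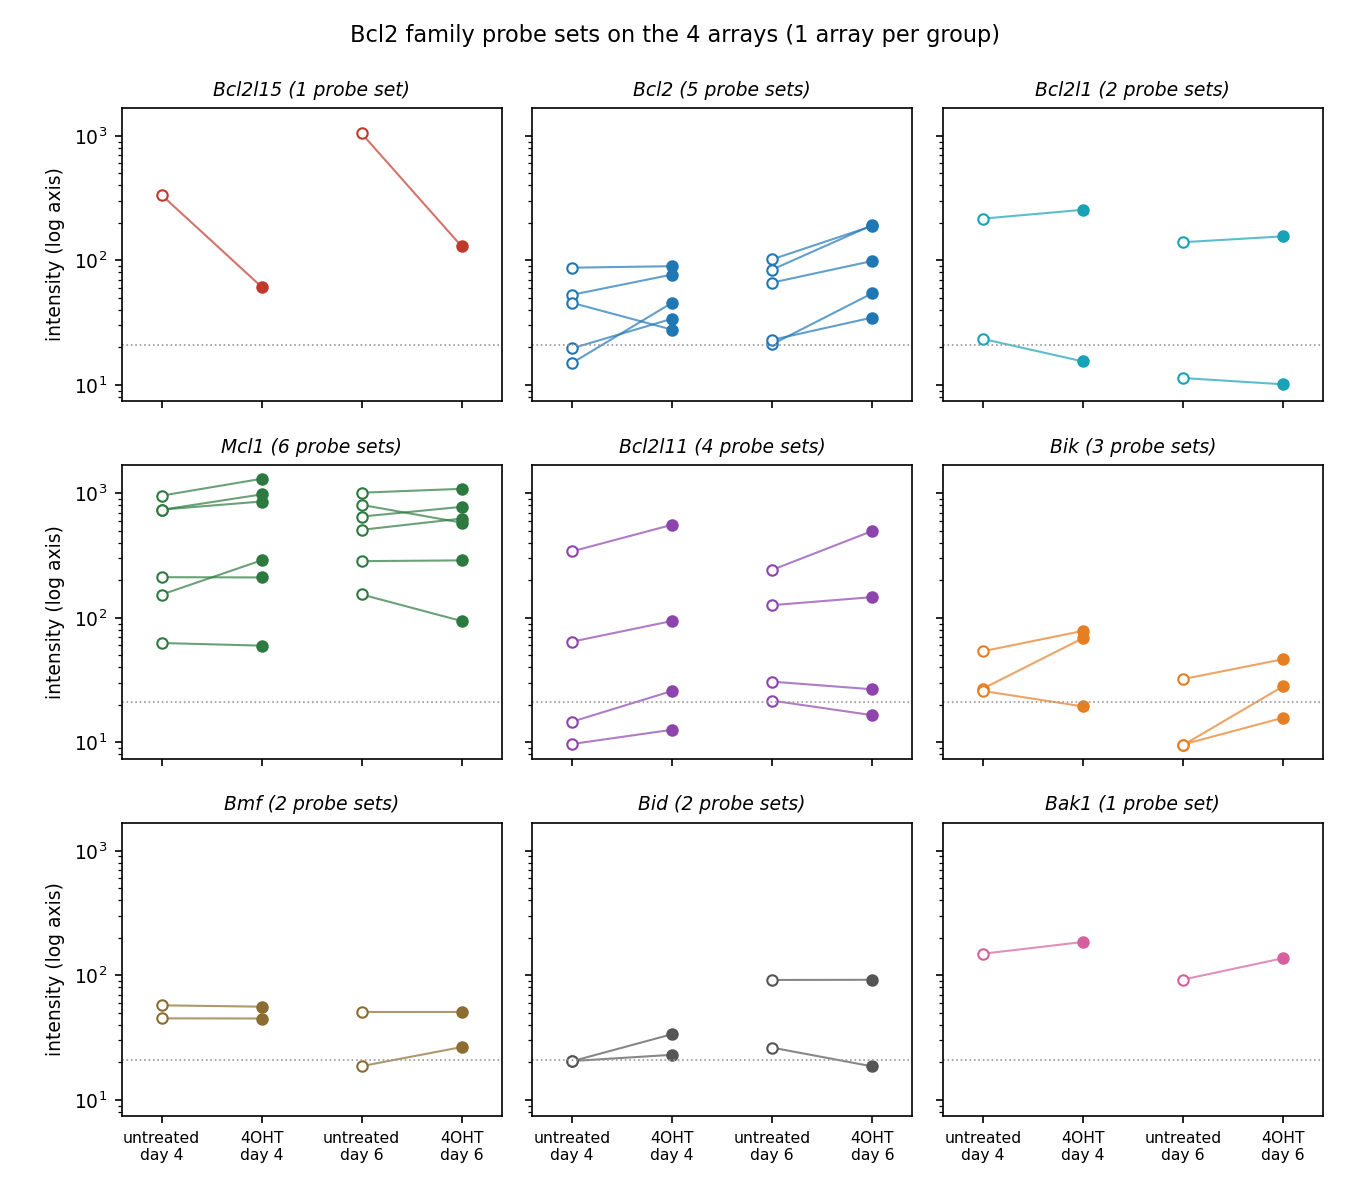
Intensity (log axis) of the 26 Bcl2 family probe sets past the level filter on the 4 arrays, 1 panel per gene, with open points for untreated and filled points for 4OHT-treated organoids, joined within a day. Each point is 1 array, and the dotted line is the filter at 20.9. Bcl2l15 reads 335 untreated and 61.3 with 4OHT at day 4, then 1044 and 129 at day 6, while the other 8 genes show smaller differences.

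Markers of absorptive enterocytes were also lower with 4OHT. Of 15 such markers, 12 were measured and 3 are not analysed here. On both days 6 of the 12 were at least 2-fold lower with 4OHT, against 0.788% of all genes past the level, each gene by its brightest probe set. With a pseudocount of 64, 2 were at least 2-fold lower at day 4 and 6 at day 6, and with the added 16 it was 7 on each day. Of all 13198 genes past the level, 162 were so at day 4 and 396 at day 6 with the added 16. Of all 23044 probe sets, 63 and 297 were so with a pseudocount of 64. The summed intensity of the markers was 4577 without and 2106 with 4OHT at day 4, and 14490 and 7488 at day 6. None was at 0, the lowest being the glucose transporter gene Slc2a2 at 8.05. Their median difference was -1.14 at day 4 and -1.17 at day 6. The markers were also higher at day 6, by a median of 1.57 without and 1.30 with 4OHT. In these bulk samples, fewer cells of a type and less RNA per cell cannot be told apart. Paneth cell markers stood the other way, with 5 of 5 above 0 on both days, a median 4OHT difference of 0.80 at day 4 and 1.97 at day 6, and summed intensities of 28964 and 46532 at day 4 and 12502 and 43260 at day 6. All 7 stem cell markers were above 0 on both days as well, with medians of 0.76 and 0.86. Of all 13198 genes past the level, 4214 were above 0 on both days. The part of these cell type levels in the Bcl2l15 difference, or in those of the members that were higher with 4OHT, was not tested.

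The signal of Actb and Gapdh, read by control probe sets along the transcripts, also dropped more steeply toward the 5' end on the 4OHT arrays. The 3' minus 5' log2 difference of Actb was larger with 4OHT by 0.94 at day 4 and by 0.62 at day 6. For Gapdh the values were 0.87 and 0.56. Between the days it was smaller at day 6, for Actb by -1.24 without and -1.56 with 4OHT. The part of this slope in the member values was not tested.

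By the distance between their profiles over the 4 arrays, each on the log2 scale after subtracting the gene's own mean, 5 genes lay nearest to Bcl2l15 among 13197. They were Fbp1, an enzyme of gluconeogenesis (distance 0.58), Cox7a1, a cytochrome c oxidase subunit (0.68), Apoa4, an apolipoprotein of enterocytes (0.72), the carboxylesterase Ces2a (0.72) and the alcohol dehydrogenase Adh6a (0.81). Cox7a1 read 113 and 22.8 at day 4 and 259 and 40.1 at day 6, untreated and 4OHT in turn. Apoa4 is also 1 of the enterocyte markers. With 4 arrays a profile holds little, and the likeness is a description.

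**Figure D2:**
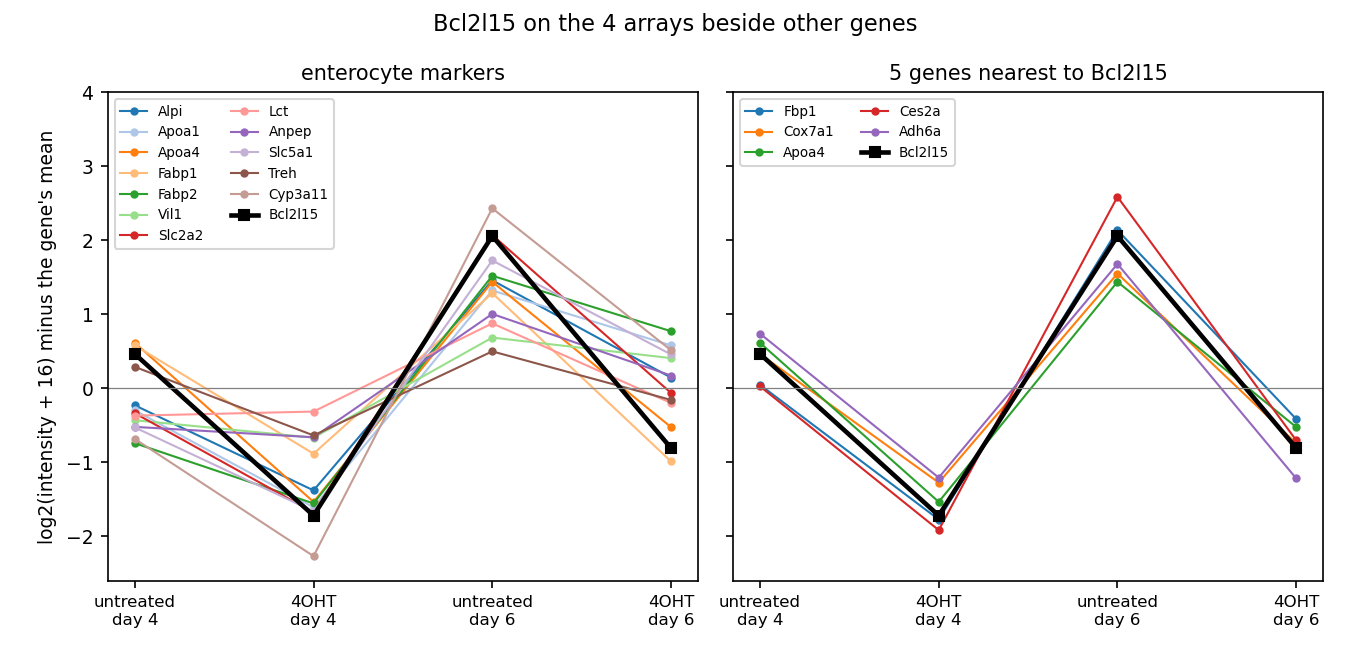
Profile of Bcl2l15 (black) over the 4 arrays, as log2(intensity + 16) minus each gene's mean, beside 12 enterocyte markers on the left and its 5 nearest genes on the right. Each point is 1 array, and lines only join the points of a gene. Bcl2l15 is lowest in 4OHT at day 4 and highest untreated at day 6, as are Fbp1, Cox7a1, Apoa4 and Ces2a among its nearest genes.

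The other 8 genes were read by 25 probe sets past the level. With 4OHT, 15 of these lay above 0 on both days, 3 below 0 on both and 7 turned sign. Of the 25, 3 passed the level on 1 untreated array alone, so their lower 4OHT value on that day follows from the filter. Over all probe sets past the level 29.5% were above and 27.1% below 0 on both days. At day 4 none of the 26 member probe sets, Bcl2l15 included, was at least 2-fold higher, against 0.903% of all probe sets, and 1 was lower, against 0.907%. At day 6, 1 was at least 2-fold higher, against 0.668%, and 1 lower, against 2.50%. The lower one was Bcl2l15 on both days, and 0.551% of all probe sets were lower on both. None was higher on both, against 0.152%. Of all probe sets at least 2-fold apart with 4OHT at day 6, 21.1% were higher, and 32.5% after quantile normalization. These contrasts served to draw up the set, so nothing is read from the counts.

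**Figure D3:**
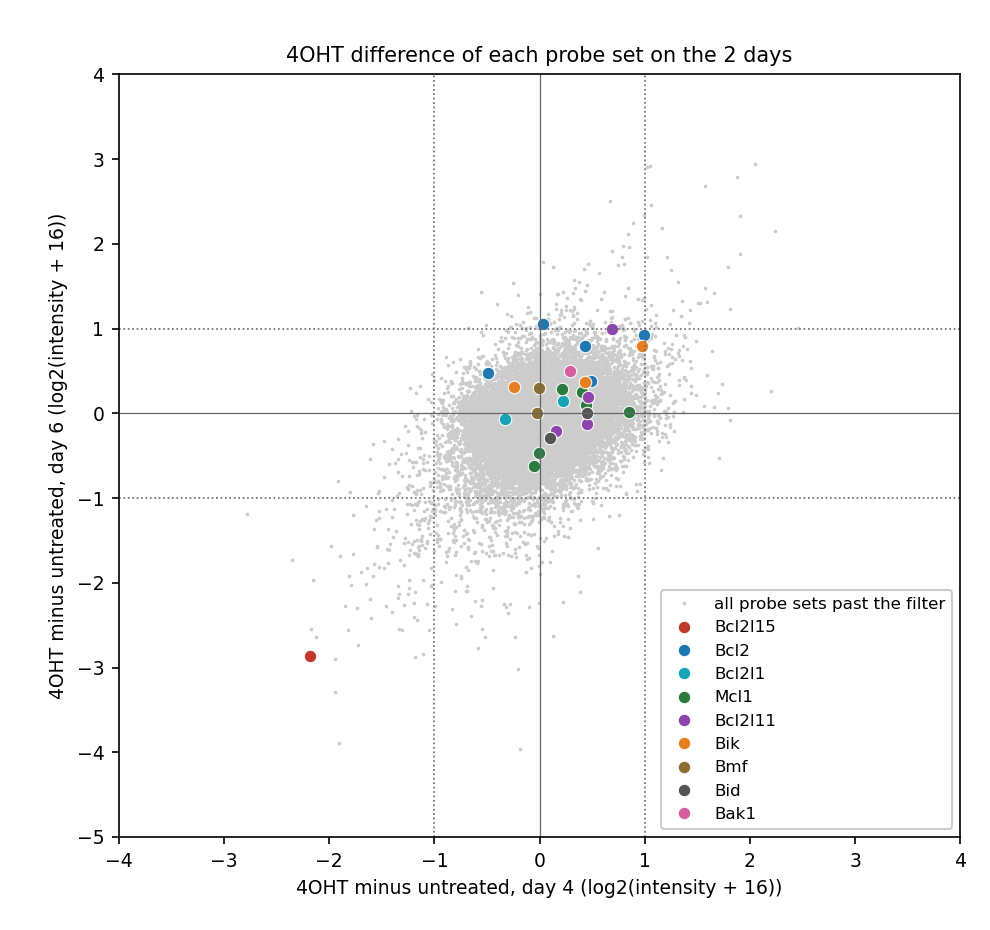
Difference of 4OHT-treated minus untreated organoids at day 4 (x) and day 6 (y), both as log2(intensity + 16), for all 23044 probe sets past the filter (grey) and the 26 of the Bcl2 family (coloured by gene). Dotted lines mark 2-fold. Bcl2l15 lies at -2.18 and -2.87, and the other 25 points lie between -0.49 and 0.99 at day 4 and between -0.63 and 1.05 at day 6.

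Among the guardians, Bcl2 gave higher readings with 4OHT on most of its 5 probe sets. All 5 were above 0 at day 6, by 0.38 to 1.05, and 4 of the 5 at day 4, of which 1443837_x_at went from 0.03 to -0.05 after quantile normalization. Probe set 1437122_at read 15 untreated and 45.7 with 4OHT at day 4, and 21.2 and 54.5 at day 6. Its differences of 0.99 and 0.92 were nearly alike on the days, and both 4OHT arrays lay above both untreated arrays. Its untreated array of day 4 was under the level of 20.9. The day 4 difference was past 2-fold after quantile normalization (1.20) and with a pseudocount of 1 (1.54). The day 6 one was 0.77 and 1.32 in that order. With a pseudocount of 64 they were 0.47 and 0.48. Probe set 1440770_at read 53.0 and 76.9 at day 4 and 102 and 189 at day 6. Here the days differed by more (0.77 and 1.14) than the arms (0.43 and 0.80). Probe set 1443837_x_at, of a kind that may bind more than 1 transcript, read 87.3 and 89.8 at day 4 and 84.4 and 192 at day 6. It was the 1 member probe set at least 2-fold higher with 4OHT at day 6 (1.05), which stood at 0.79 with a pseudocount of 64. The 4OHT array of day 6 stood above the other three, which were level. Probe set 1457687_at turned from -0.49 at day 4 (45.6 to 27.7) to 0.48 at day 6 (66.3 to 98.9). The dim 1422938_at differed by 0.49 and 0.38.

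Bcl2l1, which encodes Bcl-xL, differed little with 4OHT. Its bright probe set 1420888_at read 216 untreated and 255 with 4OHT at day 4, and 140 and 156 at day 6. The 4OHT difference was 0.22 and 0.14, while the day difference was -0.57 without and -0.66 with 4OHT. Both day 6 arrays lay below both day 4 arrays. After quantile normalization the day differences were -1.21 and -1.13. The other probe set past the level, 1420887_a_at, passed it only on the untreated array of day 4 (23.4) so that its lower 4OHT value at day 4 (-0.33) follows from the filter. At day 6 both its arrays were under the level.

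Mcl1 was read by 6 probe sets, of which 4 were above 0 with 4OHT on both days and 2 below 0 on both. The 3 of the _x_at kind were higher with 4OHT on both days, by 0.21 to 0.44 at day 4 and by 0.10 to 0.29 at day 6. The brightest of them, 1437527_x_at, read 957 and 1307 at day 4 and 1011 and 1086 at day 6. Of the 3 plain ones, 1448503_at read 212 and 211 at day 4 and 807 and 581 at day 6. Probe set 1416881_at read 62.8 and 59.8 at day 4 and 154 and 94.2 at day 6. Both were level with 4OHT at day 4 and lower at day 6, by -0.46 and -0.63. Probe set 1416880_at read 154 on the untreated array of day 4 and 285 to 290 on the other arrays. Its 4OHT differences, 0.85 and 0.02, were above 0 like those of the _x_at kind. Over time the plain and _x_at kinds parted within each arm. Without 4OHT the plain probe sets were higher at day 6 by 0.83 to 1.85, and the _x_at ones differed by -0.53 to 0.08, the last being -0.55 after quantile normalization. With 4OHT these ranges were -0.0015 to 1.39 and -0.44 to -0.26. After quantile normalization the plain 1416880_at stood at 0.14 without and -0.48 with 4OHT. No one direction over time can be given for Mcl1. The 3' minus 5' slope of the control genes was smaller at day 6, as given above, and its part in this split was not tested.

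Among the BH3-only genes, Bcl2l11, which encodes Bim, was higher with 4OHT on the 4 of its 5 probe sets past the level at day 4, and on 2 of these 4 at day 6. Its brightest, 1456005_a_at, read 342 and 559 at day 4 and 243 and 499 at day 6. Both 4OHT arrays lay above both untreated arrays, with differences of 0.68 and 0.99. At day 6 it was just short of 2-fold, and past it after quantile normalization (1.11) or with a pseudocount of 1 (1.03). Probe set 1435448_at differed by 0.46 and 0.19. The dimmer 1435449_at and 1456006_at, the last past the level only on the untreated array of day 6, differed by 0.45 and 0.16 at day 4 and by -0.13 and -0.21 at day 6. The sign of the -0.21 follows from the filter.

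Bik encodes a BH3-only protein of the endoplasmic reticulum. Probe set 1420362_a_at read 27 untreated and 68.6 with 4OHT at day 4, and 9.50 and 28.1 at day 6. Within each day the treated array was the higher one, by 0.98 and 0.79. The first of these was past 2-fold after quantile normalization (1.19), and with a pseudocount of 1 both were (1.31 and 1.47). Probe set 1449836_x_at read 53.9 and 78.6 at day 4 and 32.2 and 46.5 at day 6, a difference of 0.44 and 0.38. The third, 1420363_at, past the level only on the untreated array of day 4, differed by -0.24 and 0.31. The sign of the -0.24 follows from the filter. All 3 were lower at day 6 in both arms, by -0.94 to -0.16.

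Bmf, a BH3-only gene induced on loss of attachment, was level with 4OHT at day 4. Probe set 1454880_s_at read 57.4, 56.0, 50.8 and 50.8 in the order untreated and 4OHT at day 4, then at day 6. The 4 arrays were nearly level. Probe set 1458325_x_at read 45.2 and 45.0 at day 4 and 18.7 and 26.6 at day 6. It was lower at day 6 by -0.82 without and -0.52 with 4OHT.

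Bid links death receptors to mitochondria after cleavage by caspase 8. Probe set 1417045_at read 20.4 untreated and 33.7 with 4OHT at day 4, and 91.8 and 92.1 at day 6. The arms were the same at day 6, and both day 6 arrays lay above both day 4 arrays, by 1.56 without and 1.12 with 4OHT. With 4OHT this was 0.90 after quantile normalization, and with a pseudocount of 64 the day differences were 0.88 without and 0.68 with 4OHT. Probe set 1448560_at did not share that shift, with day differences of 0.21 and -0.17 and intensities of 18.6 to 26.3.

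The pore former Bak1 had 1 probe set past the level, 1418991_at. It read 149 untreated and 185 with 4OHT at day 4, and 92.4 and 137 at day 6. It was higher with 4OHT by 0.29 and 0.50 and lower at day 6 by -0.61 without and -0.39 with 4OHT. Without 4OHT the day difference was -1.17 after quantile normalization. The 6 member probe sets under the level, of 5 genes, reached 12 to 19.7 at their highest and differed with 4OHT by -0.18 to 0.26.

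Over time, 4 of the 26 member probe sets were at least 2-fold higher at day 6 without 4OHT (15.4%, against 23.7% of all) and 4 with it (15.4%, against 16.2%). None was at least 2-fold lower in either arm, against 4.43% and 2.47% of all. After quantile normalization 2 were higher and 4 lower without 4OHT, and 1 was higher and 2 lower with it. Of all 23044 probe sets it was then 3040 higher and 2328 lower without, and 2364 and 1546 with 4OHT. Those past 2-fold without 4OHT were Bcl2l15, 2 probe sets of Mcl1 and 1 of Bid. With 4OHT they were 2 of Bcl2, 1 of Mcl1 and 1 of Bid. These shares were near or below those of all probe sets. Of all probe sets at least 2-fold apart between the days, 84.3% were higher at day 6 without 4OHT and 86.8% with it, and after quantile normalization 56.6% and 60.5%. Below 0 in both arms were 11 of the 26, beside 37.5% of all probe sets. They include every probe set past the level of Bcl2l1, Bik, Bmf and Bak1. Of these, 1420887_a_at of Bcl2l1 and 1420363_at of Bik passed the level only on the untreated array of day 4, so that their lower day 6 value without 4OHT follows from the filter.

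**Figure D4:**
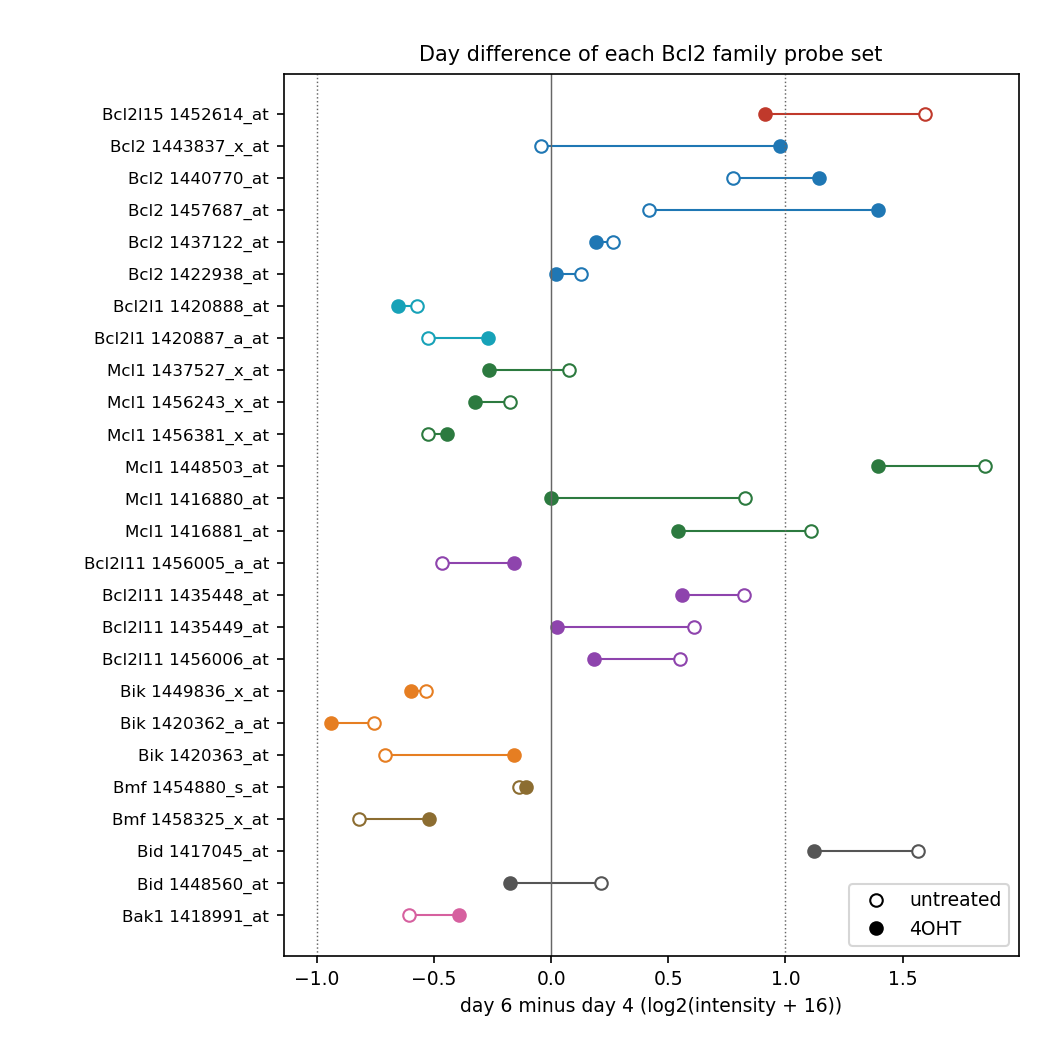
Day 6 minus day 4 difference, as log2(intensity + 16), of the 26 Bcl2 family probe sets past the filter, with open points for untreated and filled points for 4OHT-treated organoids. Dotted lines mark 2-fold. Probe sets of Bcl2l1, Bik, Bmf and Bak1 lie below 0 in both arms, and the plain and _x_at probe sets of Mcl1 lie apart within each arm.

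Other genes of the death pathway were each read by their brightest probe set. Of 18 further Bcl2 family genes, 13 were measured and 11 passed the level. At least 2-fold apart with 4OHT was 1 of the 11 at day 4, against 2.24% of all genes, and 1 at day 6, against 3.92%. It was the same gene, lower on both days: Bnip3, a mitophagy receptor with a BH3-like region, whose low level with 4OHT was known when the list was made. It read 414 and 196 at day 4 and 315 and 65.3 at day 6. Its day 4 difference was -1.02, and with a pseudocount of 64 none of the list was 2-fold lower at day 4. Bok, a relative of Bax and Bak1, was named after its values were seen. It read 154 and 282 at day 4 and 98.5 and 199 at day 6, with differences of 0.81 and 0.91. The BH3-only genes Bbc3 (Puma) and Pmaip1 (Noxa), targets of p53 named in the same way, differed by -0.05 and -0.02 at day 4 and by 0.09 and -0.01 at day 6. Over time 1 of the 11, Bcl2l2, was at least 2-fold higher at day 6 in each arm (1.33 without and 1.86 with 4OHT). Its other probe sets differed by -0.60 to 0.19 without and by -0.72 to -0.40 with 4OHT. The shares of all genes at least 2-fold higher were 24.6% without and 16.8% with 4OHT. Of the 11, none was lower without 4OHT and 1 was with it, against 5.42% and 2.80%. After quantile normalization 2 were lower and none higher without 4OHT, and 1 was lower and 1 higher with it.

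Of the apoptosome and caspase list, 13 genes were measured and past the level. None of these was 2-fold apart with 4OHT on either day, against 2.24% of all genes at day 4 and 3.92% at day 6. In a list this short a count of 0 is near these shares, so nothing is read from it. The largest differences in the same direction were those of the inflammatory caspase genes Casp1 (-0.49 and -0.69) and Casp4 (0.63 and 0.58). Their median difference at day 4 was 0.02, beside 0.06 over all genes, and at day 6 it was 0.16, beside -0.01. Over time 8 of the 13 were at least 2-fold higher at day 6 in each arm, against 24.6% of all genes without and 16.8% with 4OHT, and none was lower, against 5.42% and 2.80%. After quantile normalization it was 4 in each arm, with 2 lower without 4OHT.

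Of 15 inhibitors of apoptosis and their mitochondrial antagonists, 13 of 14 measured genes passed the level. None was 2-fold apart with 4OHT on either day, against 2.24% of all genes at day 4 and 3.92% at day 6. Naip5, an inflammasome sensor, differed by -0.90 and -0.52, and Birc2 (cIAP1) by 0.60 and 0.26. The Naip genes are near copies, and their probe sets may not tell them apart. Over time 7 of the 13 were at least 2-fold higher in each arm and 1, Birc6, was lower, beside 24.6% and 16.8% of all genes higher and 5.42% and 2.80% lower. The direction of Birc6 differed between its probe sets, since another of them was higher at day 6 by 1.30 without and 1.20 with 4OHT. After quantile normalization 5 were higher in each arm, and 3 without and 2 with 4OHT were lower. None of 9 death receptor and adaptor genes past the level, of 12, was 2-fold apart with 4OHT, beside the same shares. The ligand gene Tnfsf10 (TRAIL) differed by -0.51 and -0.26 and the necroptosis kinase gene Ripk3 by 0.14 and 0.16. Over time 1 of the 9 was at least 2-fold higher and 1 lower at day 6 without 4OHT. With 4OHT none was, and the shares of all genes are those given above.

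None of 14 upstream regulators and partners past the level, of 15, was 2-fold apart with 4OHT either. The shares of all genes were 2.24% at day 4 and 3.92% at day 6. Vdac2, a channel of the outer mitochondrial membrane that holds Bak1, differed by -0.97 and -0.65. It read 683 and 341 at day 4 and 1566 and 995 at day 6. Mapk8, the stress kinase JNK1, differed by -0.89 and -0.50 on its brightest probe set, while 1440856_at of the same gene was higher by 0.55 and 0.23. The absence of 2-fold differences depended on the settings. At day 4, 1 inhibitor of apoptosis and 1 upstream regulator were at least 2-fold lower with a pseudocount of 1, and 1 and 2 were so after quantile normalization. Of all 23044 probe sets, 672 were lower at day 4 with that pseudocount and 387 after quantile normalization, beside 209 without these changes. At day 6, 1 gene of the apoptosome and caspases was at least 2-fold higher with a pseudocount of 1. Of all probe sets 288 were, beside 154 with the added 16. Over time 8 of the 14 were at least 2-fold higher and 1 lower at day 6 without 4OHT. With 4OHT 2 were higher and none lower. The shares of all genes were 24.6% and 16.8% higher and 5.42% and 2.80% lower. After quantile normalization 3 were higher without and 2 with 4OHT, and 1 was lower in each arm. Trp53 and Bnip3l are not analysed here.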

How the data were processed

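The authors deposited linear intensities, already summarised to 1 value for each probe set on each array. Per the labels, 100 ng of total RNA was labelled with a 3' in vitro transcription kit for Affymetrix arrays. Background correction, normalization and scaling between arrays are not given in the sources used here. Probe sets naming 1 gene (34945) were kept, 932 naming several and 9211 outside the annotation were left out, and those with a highest value at or above 20.9 were described (23044). Values were moved to log2(intensity + 16) and differenced between single arrays. No test was run: each group is 1 array, and an additive model over both days was left out because the members were chosen with its results known. The calculation was tested on simulated data with large changes in bright probe sets and little noise. This checks the arithmetic only, not the error of the calls or of dim probe sets.

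The members and lists were chosen with earlier results of these data known. Named genes were all members. For each other list they were the genes at least 2-fold apart the same way on both days, or else the 2 with the largest smaller difference in the same direction, and the 5 genes nearest to Bcl2l15. Symbols matched current gene identifiers for all 32 probe sets, and 9 of the 10 genes had an upstream window in RefSeq's table. Alternatives were pseudocounts of 1 and 64, median centring, quantile normalization, thresholds of 1.5-fold and 3-fold, no level filter or one at the 75th percentile, leaving out _x_at and _s_at probe sets, and 1 probe set per gene. Python 3.11.15, pandas 2.3.3, numpy 2.4.6 and matplotlib 3.10.9 were used. The number of arrays limits the precision.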

Additional observations from a re-analysis of the deposited data

Results flagged for a closer look

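Several member probe sets gave opposite signs on the different days or in the different arms. Each sign rests on 1 array against 1, and none of these differences was tested. The 4OHT difference was larger at day 6 than at day 4 for Bcl2 1457687_at (by 0.97), Bik 1420363_at (by 0.55), Bmf 1458325_x_at (by 0.30) and Bmf 1454880_s_at (by 0.029). It changed in the other direction for Bcl2l11 1435449_at (-0.58), Bid 1448560_at (-0.39) and Bcl2l11 1456006_at (-0.37). Of these, Bcl2 1457687_at alone exceeded the 95th percentile of the gap over all probe sets (0.93). The lower 4OHT value of Bik 1420363_at at day 4 follows from the filter, as does that of Bcl2l11 1456006_at at day 6.

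The difference between the days was larger with 4OHT than without for Bcl2 1443837_x_at (by 1.02). This is the same quantity as the gap between the 4OHT differences of the days, so it too exceeded 0.93. It was smaller for Mcl1 1416880_at (-0.83), Bid 1448560_at (-0.39) and Mcl1 1437527_x_at (-0.34).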

How the results depend on the processing

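Under both pseudocounts, median centring and quantile normalization the 4OHT difference of Bcl2l15 stayed past 2-fold. At day 4 it lay between -2.43 and -1.67, and at day 6 between -3.0 and -2.52. Its day difference was 0.93 without 4OHT after quantile normalization, and with 4OHT it was 1.07 with a pseudocount of 1 and 1.01 after median centring. Of 416 values of the 26 probe sets under these 4 settings, 373 kept their sign and side of 2-fold, 8 changed sign, each from a value under 2-fold, and no value past 2-fold reversed. Counts of member probe sets moved as follows. Higher with 4OHT at day 4 there were 2 with a pseudocount of 1, 2 after quantile normalization and 4 at 1.5-fold. Of all 23044 probe sets it was 804, 318 and 1663, beside 208 without these changes. Lower at day 6 there were 2 at 1.5-fold. Of all it was 1991, beside 576. Higher at day 6 there were 4 with a pseudocount of 1, 2 after quantile normalization, 5 at 1.5-fold, and 0 with a pseudocount of 64, at 3-fold or without _x_at and _s_at probe sets. Of all it was 288, 175, 866, 66, 29 and 110 in that order, the last of 20106, beside 154. Over time without 4OHT, 3, 4 and 4 were lower (pseudocount of 1, quantile normalization, 1.5-fold). Of all it was 3006, 2328 and 3723, beside 1020. The higher count was 2 with a pseudocount of 64, quantile normalization, 3-fold or 1 probe set per gene, and 8 at 1.5-fold. Of all it was 3057, 3040, 2183, 3242 (of 13198) and 8592, beside 5465. With a pseudocount of 1 the higher count was 6, and of all 6928. With 4OHT, 1, 2 and 3 were lower in the order given for lower, and of all 2058, 1546 and 2999, beside 569. The higher count was 1 with a pseudocount of 64, quantile normalization or 1 probe set per gene, and 0 at 3-fold. Of all it was 1836, 2364, 2216 (of 13198) and 1270, beside 3744. The higher count with 4OHT was 6 with a pseudocount of 1, median centring or 1.5-fold, and of all 5069, 4375 and 6682. The cause of these changes was not tested. Quantile normalization also moved the split over all probe sets. The share of 2-fold calls that were higher at day 6 went from 84.3% to 56.6% without 4OHT and from 86.8% to 60.5% with it, and the share higher with 4OHT at day 6 from 21.1% to 32.5%. The median day difference without 4OHT moved from 0.21 to -0.030. A model with the day as a block was not run, since the members were chosen with its results known.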
